A study of Mus musculus with 12 samples.

Results

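The genes described here are 10 early response genes: the EGR zinc finger genes Egr1, Egr2 and Egr3, the orphan nuclear receptor genes Nr4a1, Nr4a2 and Nr4a3, the Krüppel-like factor genes Klf2, Klf4 and Klf6, and Btg2. They were taken by gene symbol from the deposited expression tables, which list 53801 genes, and all 10 were among the 14964 genes tested after a filter on low counts. Transcripts were counted by bulk RNA sequencing of cells sorted as macrophages from hearts of C57BL/6N mice, labelled male. The hearts had a myocardial infarction by ligation of the left anterior descending coronary artery. The mice were Bhlhe41dTomato-Cre+/-, which carry 1 copy of a dTomato-Cre allele at Bhlhe41 and are called Bhlhe41Cre here, or wild type (WT), and each genotype was sorted into cells with low and high CCR2. This gives 4 groups of 3 libraries each: Bhlhe41Cre CCR2low, WT CCR2low, Bhlhe41Cre CCR2hi and WT CCR2hi. All 4 groups had the infarction, so no uninjured heart is among them, and the age of the mice, the time after infarction and the number of animals behind a library are not given in the labels. With no statement that libraries came from separate animals, the p-values below measure the spread between these libraries, which may be technical.

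Early response genes are transcribed within minutes of a stimulus, because the factors that switch them on, such as SRF, CREB and MEF2, are already in the cell and wait only for phosphorylation or calcium signals. EGR proteins bind GC-rich sites through zinc fingers and are restrained by the NAB corepressors. NR4A receptors have no established natural ligand, and in mice Nr4a1 is needed for the Ly6C-low monocytes that patrol blood vessels. KLF2 and KLF4 restrain inflammatory activation in myeloid cells, KLF6 favours it in macrophages, and BTG2 slows proliferation and recruits the deadenylase complex that shortens mRNA tails. Many of these genes also respond to tissue dissociation, and fibroblasts and endothelial cells express them too.

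The libraries held 17.7 to 20.83 M counts (1 M is 1e+06). Bhlhe41 itself had 23.9, 26.0 and 13.3 CPM (counts per 1e+06, TMM scaled) in Bhlhe41Cre CCR2low, against 41.2, 32.3 and 34.2 CPM in WT CCR2low, a log2 fold change of -0.77 ± 0.244 (SE, adjusted p = 0.0221). Its CCR2hi levels were 7.67, 9.45 and 6.80 CPM in Bhlhe41Cre, against 45.4, 39.7 and 27.1 CPM in WT (-2.23 ± 0.257, adjusted p = 5.14e-05). The Ccr2 transcript did not follow the sort in Bhlhe41Cre, with 72.9, 60.8 and 96.7 CPM in CCR2low and 70.8, 71.7 and 89.4 CPM in CCR2hi (-0.01 ± 0.296, adjusted p = 0.983), while in WT it had 38.5, 38.5 and 17.6 CPM in CCR2low and 42.0, 68.0 and 86.7 CPM in CCR2hi (-1.06 ± 0.301, adjusted p = 0.00825). Xist, the RNA of the inactive X chromosome in females, had 1403 to 3699 counts in the 6 Bhlhe41Cre libraries and 0 to 3 counts in the 6 WT libraries, which goes against the male label of the Bhlhe41Cre mice. The summed counts of 4 Y-linked genes were 105 and 182 in the Bhlhe41Cre libraries numbered 3, 709 to 1446 in the other Bhlhe41Cre libraries and 668 to 1741 in WT libraries. Genotype and the presence of Xist RNA cannot be told apart in these libraries. Sample numbers of Bhlhe41Cre and WT also form separate blocks, so genotype and any difference in handling between the blocks cannot be told apart. Transcripts of 17 macrophage identity genes made up 3.07 to 3.44% of counts in Bhlhe41Cre CCR2low, 3.49 to 3.80% in WT CCR2low, 0.850 to 1.12% in Bhlhe41Cre CCR2hi and 0.247 to 0.580% in WT CCR2hi. The sum of 16 fibroblast genes ran the other way, at 0.323 to 0.681%, 0.653 to 1.05%, 4.79 to 6.03% and 8.82 to 9.88% in the same 4 groups, and no marker of either list was at 0 in any group. In bulk samples such as these, fewer cells of a type and less RNA per cell cannot be told apart.

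The promoters of the NR4A genes, Klf2 and Btg2 are shown first because these genes moved furthest between the genotypes or parted from their own relatives, and because their upstream sequences hold letters known to be read by signal-driven factors. Each is taken from the 250 bases before the start given by RefSeq on GRCm38.p6, read 5′ to 3′ on the gene's strand. That start lies inside the gene annotated by GENCODE for Nr4a1, Nr4a3 and Klf2, so the Nr4a3 and Klf2 sequences end where the annotated gene begins, after 98 and 221 bases, and the Nr4a1 window lies wholly within the annotated gene. Capitals mark TGACG, the core of the cyclic AMP response element bound by CREB and ATF factors, on either strand (CGTCA is its reverse complement), the whole element TGACGTCA in Btg2, which holds 2 overlapping copies of that core, the EGR site GCGGGGGCG on either strand, and a MEF2 site.
Nr4a1, chr15:101266596-101266845, plus strand: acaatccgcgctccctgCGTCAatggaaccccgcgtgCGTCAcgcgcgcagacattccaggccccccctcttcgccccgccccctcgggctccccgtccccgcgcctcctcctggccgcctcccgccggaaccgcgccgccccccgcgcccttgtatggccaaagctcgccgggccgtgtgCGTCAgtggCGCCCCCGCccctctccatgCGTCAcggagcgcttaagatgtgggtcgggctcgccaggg
Nr4a2, chr2:57124004-57124253, minus strand: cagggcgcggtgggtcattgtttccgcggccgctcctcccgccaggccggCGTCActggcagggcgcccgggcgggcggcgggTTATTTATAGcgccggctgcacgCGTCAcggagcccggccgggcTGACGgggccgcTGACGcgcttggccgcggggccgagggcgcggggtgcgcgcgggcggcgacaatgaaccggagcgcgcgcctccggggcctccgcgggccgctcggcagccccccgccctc
Nr4a3, chr4:48045055-48045152, plus strand: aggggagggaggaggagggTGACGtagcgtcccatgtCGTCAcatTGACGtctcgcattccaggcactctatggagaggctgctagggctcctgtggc
Klf2, chr8:72318812-72319032, plus strand: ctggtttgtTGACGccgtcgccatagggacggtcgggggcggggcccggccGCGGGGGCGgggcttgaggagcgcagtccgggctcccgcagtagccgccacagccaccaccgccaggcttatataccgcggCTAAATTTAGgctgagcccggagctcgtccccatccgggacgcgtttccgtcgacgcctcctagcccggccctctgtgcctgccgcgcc
Btg2, chr1:134079156-134079405, minus strand: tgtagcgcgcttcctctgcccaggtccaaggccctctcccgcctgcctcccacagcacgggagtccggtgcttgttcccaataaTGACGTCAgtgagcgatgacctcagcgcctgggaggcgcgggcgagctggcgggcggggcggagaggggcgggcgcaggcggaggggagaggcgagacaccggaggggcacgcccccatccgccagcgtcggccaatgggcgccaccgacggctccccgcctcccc

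Promoters of 8 of the 10 genes were in the RefSeq table, and those of Egr1 and Egr3 were not analysed here. TGACG lay in 6 of these 8, against 17.9% of all 27025 promoters of the same length: 4 times each in Nr4a1, Nr4a2 and Nr4a3 (in Nr4a3 the one nearest the RefSeq start lies in the part not printed), as the single overlapping element in Btg2, and once each in Klf2 and Klf4. The full TGACGTCA of Btg2 is held by 1.62% of promoters. The MEF2 site of Klf2 and Nr4a2 is held by 3.01%, and in Nr4a2 it overlaps a TATA box, TATAAA on the other strand, which 13% of promoters hold. The EGR site GCGGGGGCG of Nr4a1, Klf2 and Klf4 is held by 2.56%. The E-box CACGTG, the letters bound by BHLHE41 and related basic helix-loop-helix proteins, lay in Egr2, Klf4 and Klf6, against 6.05% of promoters. The CArG box bound by SRF lay in none of the 8, against 1.4% of promoters, and the NR4A monomer site AAAGGTCA in none, against 1.31%. These matches describe letters in a window and are not evidence of binding.

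The 10 genes share a compact build. They have 2 to 8 exons in their longest coding transcript, against a median of 9 over 13239 expressed coding genes, and 9 of 10 span less of the genome than the median gene, with a median of 6.06 kb against 24.5 kb. Nr4a3 is the exception, at 41.3 kb. The AU-rich letters TATTTAT, found in unstable mRNAs, occur in the 3′ untranslated regions of 5 of the 10, which are Nr4a2, Nr4a3, Klf2, Klf6 and Btg2, against 30.3% of genes compared. The GC content of their transcripts ran from 42.4% in Klf6 to 61.6% in Klf2, around a median of 49.8% over all genes.

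In the CCR2low gate, 7 of the 10 genes were lower in Bhlhe41Cre than in WT macrophages and none was higher (edgeR quasi-likelihood test, Benjamini-Hochberg adjusted p under 0.05). Over all genes tested, 43.0% were called in this comparison and 26.7% were lower. Btg2, Klf2 and Nr4a1 fell most, by 7.52-fold, 6.61-fold and 5.12-fold, followed by Egr1 and Egr2 at 3.03-fold and 2.69-fold, Klf4 at 2.08-fold and Egr3 at 1.89-fold. Nr4a2, Nr4a3 and Klf6 were not called. The median log2 fold change of the 10 genes was -1.24, beside -0.18 over all genes. The libraries of the 2 genotypes did not overlap for 8 of the 10 genes, against 51.4% of all genes. None of the 17 macrophage identity genes was called in this comparison (median -0.14), while 9 of 16 fibroblast genes (median -0.89), 9 of 10 cardiomyocyte genes (median -2.15) and all 10 mural cell genes (median -1.89) were lower. The summed share of the mural genes was 0.0122 to 0.0230% in Bhlhe41Cre CCR2low, against 0.0521 to 0.0574% in WT CCR2low, and that of the cardiomyocyte genes 0.00269 to 0.00342% in Bhlhe41Cre CCR2low, against 0.00995 to 0.0169% in WT CCR2low. The part of these transcripts in the result was not tested.

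In the CCR2hi gate, 6 of the 10 genes were lower in Bhlhe41Cre and none was higher, where 32.1% of all genes were called and 15.9% were lower. Klf2 fell 4.61-fold, Btg2 2.55-fold, Egr2 2.47-fold, Egr1 1.98-fold, Klf4 1.73-fold and Nr4a1 1.69-fold. Egr3, Nr4a2, Nr4a3 and Klf6 were not called. The median of the 10 genes was -0.77, beside -0.03 over all genes, and the genotypes did not overlap for 6 of them, against 48.4% of all genes. Here 10 of 17 macrophage identity genes and 8 of 9 neutrophil genes were higher in Bhlhe41Cre (medians 1.17 and 3.93), and 7 of 16 fibroblast genes were lower (median -0.70); their part in the result was not tested. When libraries were scaled to the macrophage identity genes, the 6 genes fell further and Egr3 and Klf6 were called lower too. That scaling moved the median gene to -1.24 and called 11137 of the 14964 genes.

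**Figure D1:**
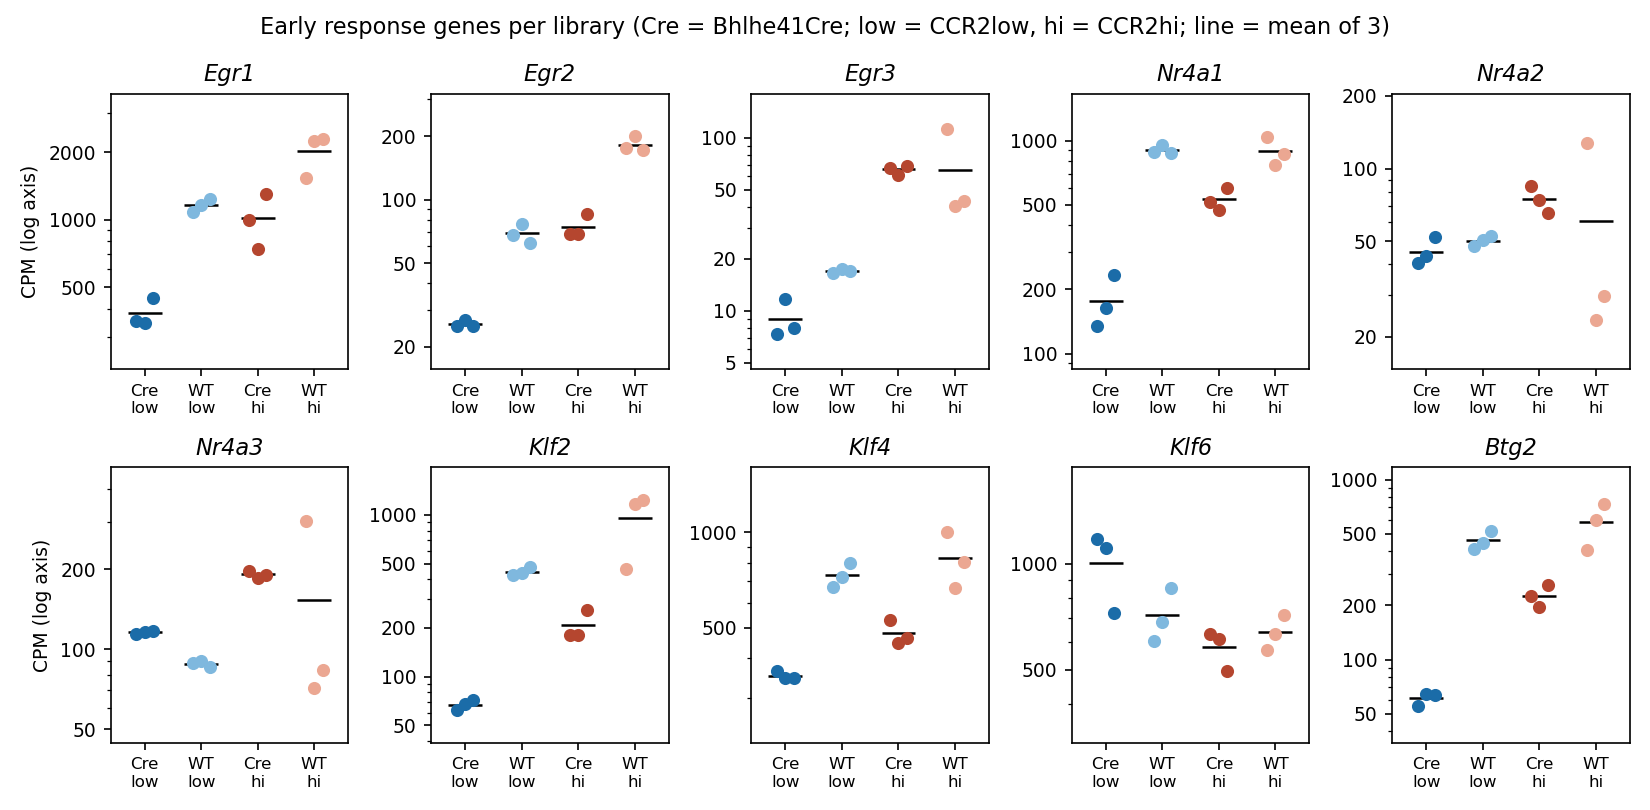
CPM of each of the 10 genes in every library (log axis), with Bhlhe41Cre left of WT within the CCR2low and then the CCR2hi gate; points are libraries and lines are group means of 3. For Btg2, Klf2 and Nr4a1 all Bhlhe41Cre CCR2low libraries lie below those of the other 3 groups, and WT CCR2hi replicate 1 lies far above its group for Egr3, Nr4a2 and Nr4a3.

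Egr1 (chromosome 18), the most widely induced EGR factor, had 354, 345 and 448 CPM in Bhlhe41Cre CCR2low, against 1078, 1159.8 and 1236 CPM in WT CCR2low. The lowest WT library had more than any Bhlhe41Cre library, and the log2 fold change was -1.60 ± 0.213 (SE, adjusted p = 0.000136). Among CCR2hi libraries Egr1 had 998, 742 and 1304 CPM in Bhlhe41Cre, against 1529, 2229.6 and 2279 CPM in WT, again without overlap (-0.99 ± 0.209, adjusted p = 0.00326). WT CCR2hi stood apart as the highest group, Bhlhe41Cre CCR2low as the lowest, and WT CCR2low overlapped Bhlhe41Cre CCR2hi between them. A test against a minimum of 1.5-fold kept the CCR2low call and ended the CCR2hi call (adjusted p = 0.0905).

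Egr2 (chromosome 10), which shares its binding sites with Egr1 and takes part in macrophage and lymphocyte activation, differed by a like amount in both gates. It had 25.2, 26.7 and 25.0 CPM in Bhlhe41Cre CCR2low, against 68.2, 76.8 and 62.5 CPM in WT CCR2low, and 68.4, 68.9 and 85.1 CPM in Bhlhe41Cre CCR2hi, against 176, 199.9 and 173 CPM in WT CCR2hi. The genotypes did not overlap in either gate, and the folds were close: -1.43 ± 0.129 in CCR2low (adjusted p = 1.79e-05) and -1.30 ± 0.127 in CCR2hi (adjusted p = 1.36e-05). The difference between them was -0.13 ± 0.178 (adjusted p = 0.663).

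Egr3 (chromosome 14), a relative of Egr1 that is induced with it, was rare in the CCR2low gate. It had 7.34, 11.7 and 7.94 CPM in Bhlhe41Cre CCR2low, against 16.6, 17.4 and 17.1 CPM in WT CCR2low. The difference of -0.92 ± 0.330 passed the threshold (adjusted p = 0.0383), but 14 of 23 other settings ended the call, among them a correction for GC content and length (-0.54, adjusted p = 0.244), chosen after seeing the data, and leaving out any 1 of 8 libraries (adjusted p from 0.0684 to 0.181). Egr3 in CCR2hi had 66.9, 61.4 and 69.0 CPM in Bhlhe41Cre, against 113, 40.4 and 43.4 CPM in WT. The WT libraries lay on both sides of the Bhlhe41Cre ones, with replicate 1 high, and the difference was 0.01 ± 0.309 (adjusted p = 0.991).

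Nr4a1 (chromosome 15), the receptor also called NUR77, had 135, 163 and 233 CPM in Bhlhe41Cre CCR2low, against 888, 954 and 878 CPM in WT CCR2low. Every Bhlhe41Cre library was far below every WT library (-2.36 ± 0.196, adjusted p = 1e-05), and 325 of the 14964 genes tested had a log2 fold change this low or lower. For CCR2hi cells the gap was narrower, with 515, 475 and 601 CPM in Bhlhe41Cre, against 1042, 771 and 869 CPM in WT (-0.75 ± 0.188, adjusted p = 0.00835). Bhlhe41Cre CCR2low was the lowest group and Bhlhe41Cre CCR2hi the next, both apart from the others, while the WT gates overlapped. The CCR2hi call was lost against a minimum of 1.5-fold (adjusted p = 0.342).

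Nr4a2 (chromosome 2), or NURR1, which binds the same sites as Nr4a1, had 40.4, 43.2 and 52.1 CPM in Bhlhe41Cre CCR2low, against 47.6, 50.4 and 52.7 CPM in WT CCR2low, and the groups overlapped (-0.15 ± 0.470, adjusted p = 0.815). Nr4a3 (chromosome 4), or NOR1, had 114, 116 and 117 CPM in Bhlhe41Cre CCR2low, against 88.8, 90.6 and 85.5 CPM in WT CCR2low. These groups lay apart with Bhlhe41Cre above, yet the fit over 12 libraries gave 0.39 ± 0.390 (adjusted p = 0.444), with a spread that takes in WT CCR2hi replicate 1. Without that library, or with only the CCR2low libraries fitted, Nr4a3 was called higher in Bhlhe41Cre CCR2low (0.58, adjusted p = 0.000509, and 0.54, adjusted p = 0.00402). Within the CCR2low gate Nr4a1 fell while Nr4a2 and Nr4a3 were not called lower under any of the settings tried.

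In the CCR2hi gate Nr4a2 had 84.7, 74.1 and 65.4 CPM in Bhlhe41Cre, against 128, 23.5 and 29.5 CPM in WT. Nr4a3 had 197, 186 and 191 CPM in Bhlhe41Cre, against 303, 71.2 and 83.9 CPM in WT. For both genes the Bhlhe41Cre libraries were tight, WT replicate 1 lay above them and WT replicates 2 and 3 lay below. With all 12 libraries neither was called (0.31 ± 0.467, adjusted p = 0.651, and 0.33 ± 0.388, adjusted p = 0.549). Without WT CCR2hi replicate 1, Nr4a2, Nr4a3 and Egr3 were called higher in Bhlhe41Cre CCR2hi, with log2 fold changes of 1.48, 1.29 and 0.64 (adjusted p = 6.25e-05, 7.25e-06 and 0.0136), and the count became 9 called, 3 higher and 6 lower.

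**Figure D2:**
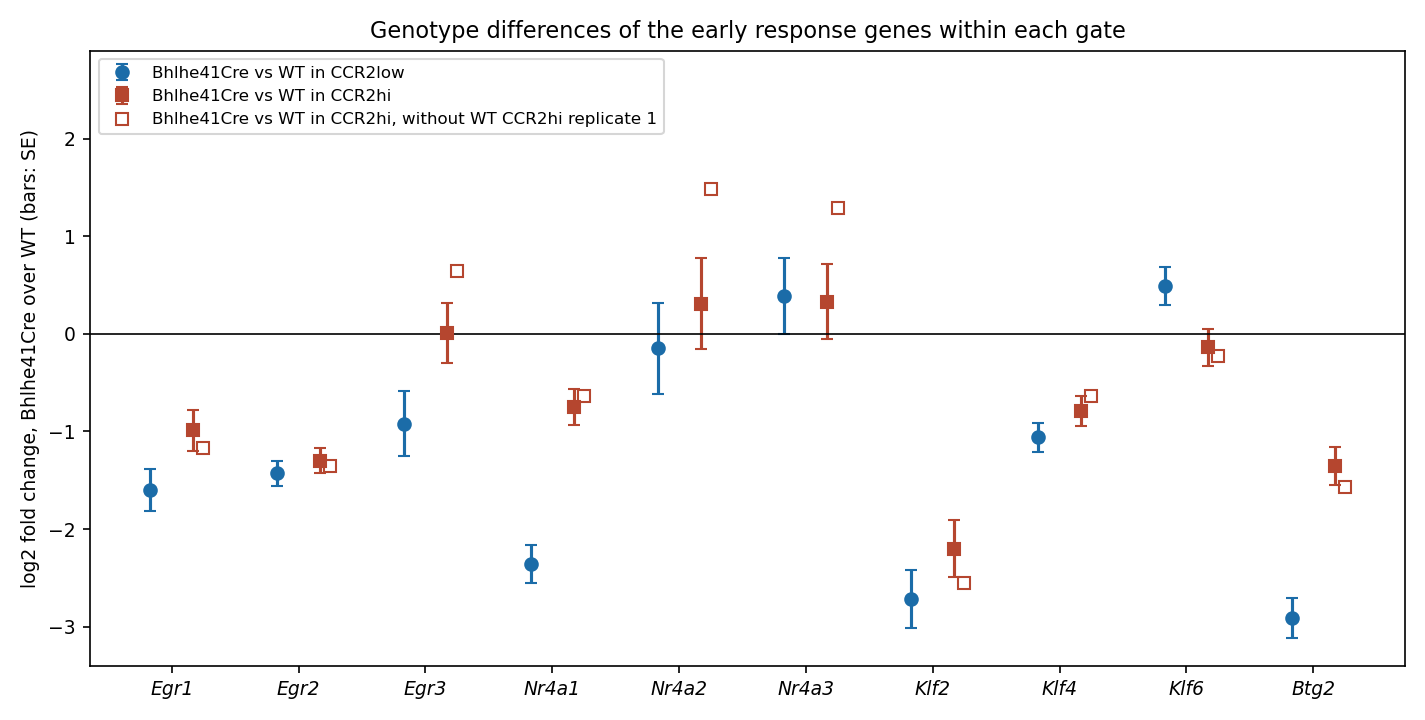
Log2 fold change of each gene, Bhlhe41Cre over WT, in CCR2low (circles) and CCR2hi (filled squares), with bars of 1 SE; open squares are the CCR2hi values without WT CCR2hi replicate 1. Btg2, Klf2 and Nr4a1 lie lowest in CCR2low, and leaving out the library moves Egr3, Nr4a2 and Nr4a3 to 0.64, 1.48 and 1.29.

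Klf2 (chromosome 8), a factor that keeps endothelial cells and monocytes quiescent, had 62.4, 67.4 and 71.7 CPM in Bhlhe41Cre CCR2low, against 422, 435 and 473 CPM in WT CCR2low. No library came near the other genotype (-2.72 ± 0.296, adjusted p = 4.52e-05), and 209 genes of 14964 had a log2 fold change this low or lower. In the CCR2hi gate Klf2 had 181, 182 and 259 CPM in Bhlhe41Cre, against 462, 1163 and 1236 CPM in WT (-2.20 ± 0.289, adjusted p = 0.000121), where 124 genes were as low or lower. WT replicate 1 was the lowest WT library and still above every Bhlhe41Cre library. Klf2 was called lower in Bhlhe41Cre in both gates under all alternatives run.

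Klf4 (chromosome 4), a zinc finger factor of monocyte differentiation, had 365, 347 and 346 CPM in Bhlhe41Cre CCR2low, against 674, 725 and 799.8 CPM in WT CCR2low. Its CCR2hi levels were 527, 448 and 464 CPM in Bhlhe41Cre, against 1007, 668 and 809 CPM in WT. The genotypes did not overlap in either gate (-1.06 ± 0.151, adjusted p = 0.000197, and -0.79 ± 0.150, adjusted p = 0.00161). In CCR2low the correction for GC content and length left -0.57 (adjusted p = 0.0194), and scaling to macrophage identity genes ended the call (-0.92, adjusted p = 0.11). In CCR2hi the minimum of 1.5-fold ended it (adjusted p = 0.199).

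Klf6 (chromosome 13), the Krüppel-like factor that favours inflammatory gene expression in macrophages, did not follow its relatives. It had 1176, 1107 and 725 CPM in Bhlhe41Cre CCR2low, against 605, 681 and 852 CPM in WT CCR2low, with replicate 3 of the Bhlhe41Cre group inside the WT range. The difference of 0.49 ± 0.192 missed the threshold (adjusted p = 0.0537), and 11 of 23 other settings called it higher, with 0.83 (adjusted p = 0.00292) when Bhlhe41Cre CCR2low replicate 3 was left out. CCR2hi cells had Klf6 at 630.0, 612 and 496 CPM in Bhlhe41Cre, against 569, 633 and 716 CPM in WT, with overlap (-0.14 ± 0.192, adjusted p = 0.601).

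Btg2 (chromosome 1), an antiproliferative gene induced by p53 and by growth factors, showed the widest genotype gap of the 10 in CCR2low macrophages. It had 55.2, 64.5 and 63.7 CPM in Bhlhe41Cre CCR2low, against 413, 447 and 520.2 CPM in WT CCR2low (-2.91 ± 0.205, adjusted p = 2.84e-06), and 168 genes of 14964 were as low or lower. Its CCR2hi levels were 225, 196 and 259 CPM in Bhlhe41Cre, against 405, 595 and 734 CPM in WT (-1.35 ± 0.194, adjusted p = 0.00023). The genotypes did not overlap in either gate, and both calls stood under all alternatives run.

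Levels of different genes were compared on the TPM scale, which accounts for transcript length. The summed TPM of the 10 genes averaged 954 ± 148 in Bhlhe41Cre CCR2low and 2329.6 ± 316 in WT CCR2low, and 1855 ± 232 in Bhlhe41Cre CCR2hi and 4170.0 ± 418 in WT CCR2hi (SD, n = 3 each). The leading gene differed by group. Klf6 led in Bhlhe41Cre CCR2low at 376 ± 139 TPM, ahead of Klf4 at 169 ± 20.1 and Egr1 at 156 ± 7.10 TPM. In WT CCR2low, Nr4a1 at 535 ± 41.2 and Egr1 at 491 ± 64.4 TPM led together, within their spread of each other. In Bhlhe41Cre CCR2hi, Egr1 at 491 ± 138 TPM and Nr4a1 at 359 ± 42.8 TPM were the highest, with overlapping libraries. In WT CCR2hi, Egr1 at 1085 ± 203 TPM and Klf2 at 962 ± 417 TPM were within their spread of each other, and Klf2 was above Egr1 in replicate 3 (1225 and 1202 TPM). Egr3 was the lowest of the 10 in every library outside WT CCR2hi. In WT CCR2hi, Nr4a2 lay below it in replicates 2 and 3 (12.8 and 17.5 TPM, beside 20.2 and 19.6 TPM for Egr3).

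The families differed in how their make-up shifted. Egr1 supplied most EGR transcript throughout, with 91.1 ± 1.66% of the family's TPM in Bhlhe41Cre CCR2low and 92.3 ± 0.972% in WT CCR2low, and 87.0 ± 2.45% in Bhlhe41Cre CCR2hi and 87.3 ± 3.93% in WT CCR2hi (SD, n = 3 each). Nr4a1 made up 57.3 to 72.7% of NR4A transcript in Bhlhe41Cre CCR2low and 91.3 to 92.0% in WT CCR2low, ranges that do not overlap. In CCR2hi its share was 77.2 to 81.6% in Bhlhe41Cre and 80.5 to 93.8% in WT, with overlap. Klf2 held 7.41 to 12% of KLF transcript in Bhlhe41Cre CCR2low and 34.6 to 38.4% in WT CCR2low, while Klf6 held 52.4 to 66.2% in Bhlhe41Cre CCR2low and 23.4 to 27.7% in WT CCR2low. In CCR2hi, Klf6 held 28.5 to 37.6% in Bhlhe41Cre and 14.9 to 18.2% in WT. The KLF pool was led by Klf6 in Bhlhe41Cre CCR2low and by Klf4 and Klf2 in WT CCR2low.

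**Figure D3:**
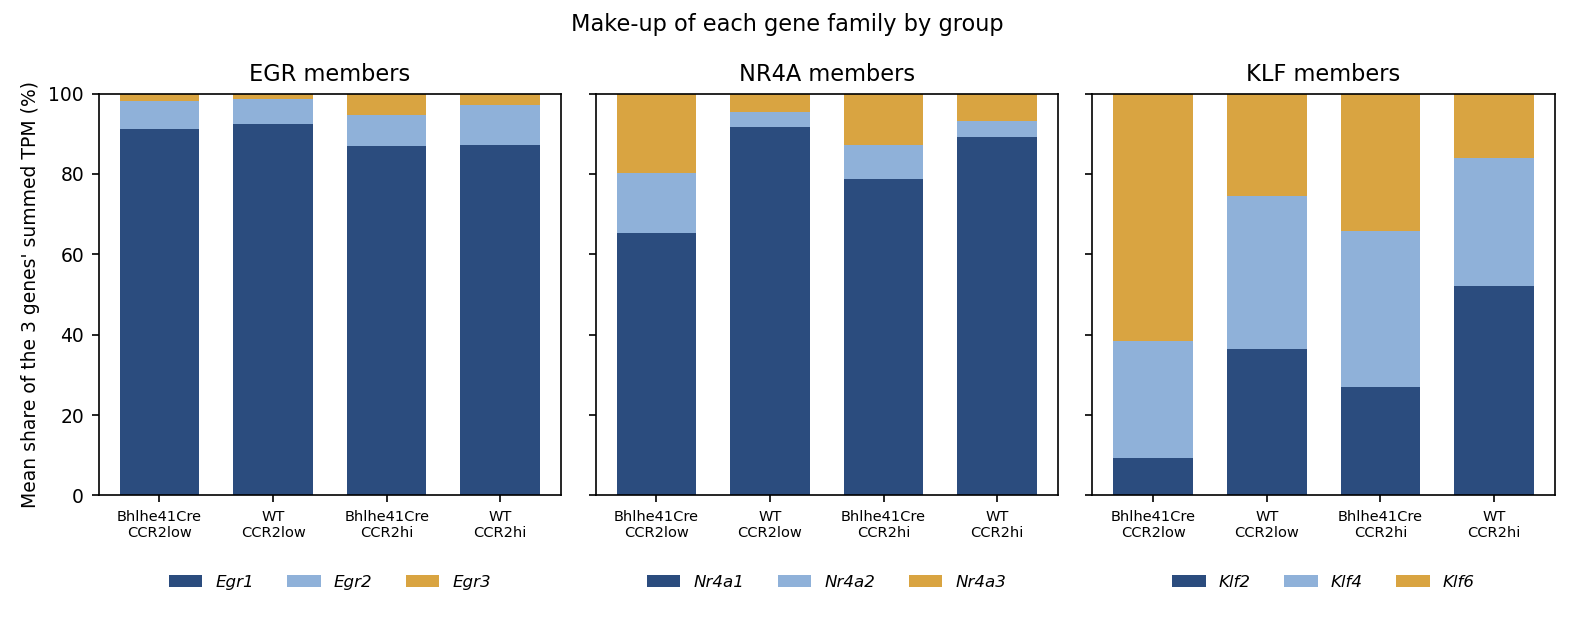
Mean share (%, n = 3) of each family's summed TPM held by each of its 3 genes, by group, with Bhlhe41Cre left of WT in each gate. Nr4a1 makes up 65.2% of NR4A transcript in Bhlhe41Cre CCR2low and 91.6% in WT CCR2low, and Klf6 makes up 61.5% of KLF transcript in Bhlhe41Cre CCR2low and 25.5% in WT CCR2low.

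Between the gates of Bhlhe41Cre hearts, 7 of the 10 genes were lower in CCR2low than in CCR2hi libraries and 1, Klf6, was higher. Over all genes 54.1% were called, 29.1% lower and 24.9% higher. Egr3 differed most, with a mean of 9.0 ± 2.38 CPM in the CCR2low libraries and of 65.8 ± 3.91 CPM in the CCR2hi libraries (SD, n = 3 each; -2.87 ± 0.340, adjusted p = 9.97e-06). Btg2 averaged 61.1 ± 5.20 CPM in CCR2low and 227 ± 31.6 CPM in CCR2hi (-1.89 ± 0.198, adjusted p = 3.26e-06), and Nr4a1 177 ± 50.6 CPM in CCR2low and 530.3 ± 64.5 CPM in CCR2hi (-1.58 ± 0.191, adjusted p = 1.19e-05). Klf2, Egr2 and Egr1 had log2 fold changes of -1.62, -1.53 and -1.41. Klf4 passed at -0.44 (adjusted p = 0.0225), a call that 7 of 23 other settings ended. Klf6 had 0.79 ± 0.193 (adjusted p = 0.00347), a call that 2 of 23 other settings ended. These were the minimum of 1.5-fold (adjusted p = 0.136) and limma on TPM (0.57, adjusted p = 0.104). The gates of Bhlhe41Cre did not overlap for any of the 10 genes, against 61.3% of all genes, Nr4a2 and Nr4a3 included (-0.72, adjusted p = 0.215, and -0.73, adjusted p = 0.133). Without WT CCR2hi replicate 1, or with only the Bhlhe41Cre libraries fitted, both were called lower as well, Nr4a2 at -0.73 and -0.71 (adjusted p = 0.000861 and 0.00451) and Nr4a3 at -0.73 and -0.71 (adjusted p = 3.21e-05 and 0.000587), and without that library all 10 genes were called.

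In WT hearts 4 of the 10 genes were lower in CCR2low than in CCR2hi and none was higher, where 59.8% of all genes were called, 30.0% lower and 29.8% higher. These were Egr3 (-1.94 ± 0.324, adjusted p = 0.000169), Egr2 (-1.40 ± 0.127, adjusted p = 7.48e-07), Klf2 (-1.10 ± 0.279, adjusted p = 0.0039) and Egr1 (-0.80 ± 0.209, adjusted p = 0.00486). Nr4a1 averaged 907 ± 41.1 CPM in CCR2low and 894 ± 137 CPM in CCR2hi (0.02 ± 0.187, adjusted p = 0.93), and Btg2 459.9 ± 54.9 CPM in CCR2low and 578 ± 165 CPM in CCR2hi (-0.33 ± 0.190, adjusted p = 0.151). Btg2 was called lower in WT CCR2low under 6 of 23 other settings, with -0.73 (adjusted p = 0.00151) without WT CCR2hi replicate 1, -0.65 (adjusted p = 0.0135) on TPM and -0.46 (adjusted p = 0.0326) with the GC and length correction, and with -0.53 when any 1 Bhlhe41Cre CCR2hi library was left out (adjusted p from 0.0333 to 0.0389). Nr4a2 was called higher in WT CCR2low without WT CCR2hi replicate 1 (0.72, adjusted p = 0.00265), and Nr4a3 lower without replicate 2 or 3 of WT CCR2hi (-1.13 and -1.08, adjusted p = 0.0154 and 0.0295). The gates did not overlap for Egr1, Egr2 and Egr3, or 3 of the 10, against 66.0% of all genes. The minimum of 1.5-fold ended the WT call of Egr1 (adjusted p = 0.132). With limma on TPM, Klf4 was called lower in WT CCR2low (-0.52, adjusted p = 0.0225). The GC and length correction moved Egr1 to -0.47 in WT (adjusted p = 0.0379) and, in Bhlhe41Cre, Egr1 to -0.85 and Klf2 to -0.97. With that correction Klf6 was called higher in WT CCR2low (0.42, adjusted p = 0.0169).

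The gates also differ in what else they hold: all 17 macrophage identity genes were higher and all 16 fibroblast genes lower in CCR2low than in CCR2hi, in both genotypes (macrophage medians 2.08 in Bhlhe41Cre and 3.10 in WT, fibroblast medians -3.50 in Bhlhe41Cre and -3.25 in WT). Of 13 endothelial genes, all 13 were lower in CCR2low in Bhlhe41Cre (median -2.28) and 12 in WT (median -1.54). Over all genes 29.1% were lower in Bhlhe41Cre and 30.0% in WT. The summed endothelial share in Bhlhe41Cre was 0.0428 to 0.0971% in CCR2low and 0.318 to 0.424% in CCR2hi. In WT it was 0.0877 to 0.116% in CCR2low and 0.210 to 0.358% in CCR2hi. Scaled to the macrophage identity genes, all 10 genes were lower in CCR2low in both genotypes, among them Klf6, which then had -1.19 in Bhlhe41Cre and -3.13 in WT, and Nr4a1, at -3.58 in Bhlhe41Cre and -3.39 in WT. That scaling moved the median of all genes to -1.99 in Bhlhe41Cre and -3.33 in WT. It called 13542 of the 14964 genes in Bhlhe41Cre and 14362 in WT, so the count of 10 says little about these genes in particular. Egr3 remained the lowest of the 10 in both genotypes (-4.83 in Bhlhe41Cre and -5.54 in WT) and Klf6 the highest. A change of scaling moves all genes by nearly the same amount, so it leaves their order nearly fixed. The part of the other cells' transcripts in the gate differences was not tested.

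**Figure D4:**
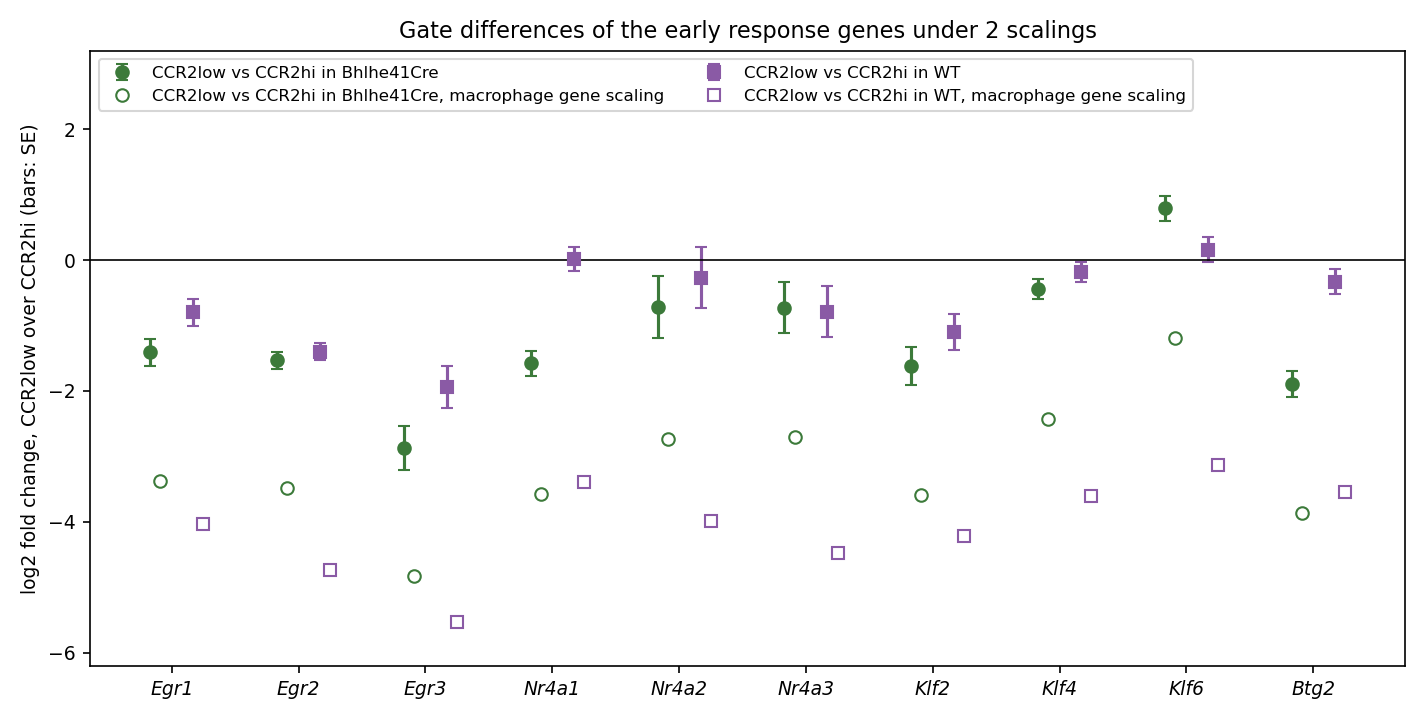
Log2 fold change of each gene, CCR2low over CCR2hi, in Bhlhe41Cre (circles) and WT (squares); filled points use TMM scaling, with bars of 1 SE, and open points use scaling to 17 macrophage identity genes. Filled points of Klf6 lie above 0 and its open points at -1.19 in Bhlhe41Cre and -3.13 in WT, and all open points lie below 0.

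The gate difference itself was set against genotype with an interaction term, which subtracts the WT log2 fold change between the gates from the Bhlhe41Cre one. It was lower for Nr4a1 (-1.60 ± 0.266, adjusted p = 0.00317) and Btg2 (-1.56 ± 0.271, adjusted p = 0.00426), 2 of the 10 genes, where 12.6% of all genes were called, 7.85% lower and 4.74% higher. Their genotype differences were larger in CCR2low than in CCR2hi cells. Marker genes of cell types had interactions in the same direction, and none was called higher. Called lower were 8 of 10 cardiomyocyte genes (median -2.06), 6 of 10 mural cell genes (-1.57) and 7 of 9 neutrophil genes (-3.76). So were 3 of 11 T and NK cell genes (-2.73) and 2 of 13 endothelial genes (-0.73). The B cell list had 1 of 6 lower (-2.16) and the fibroblast list 1 of 16 (-0.16). Of the macrophage identity genes, 7 of 17 were lower (median -1.09). Between the WT gates, 2 of the 10 cardiomyocyte genes (median -0.33) and 9 of the 10 mural cell genes (median -1.40) were lower in CCR2low. Between the Bhlhe41Cre gates all 10 of each list were lower (medians -2.31 and -2.82). Over all genes, 30.0% were lower between the WT gates and 29.1% between the Bhlhe41Cre gates. The cardiomyocyte genes made up 0.00297 ± 0.000396% of counts in Bhlhe41Cre CCR2low, against 0.0131 ± 0.00351% in WT CCR2low, 0.0180 ± 0.00217% in Bhlhe41Cre CCR2hi and 0.0172 ± 0.00267% in WT CCR2hi (SD, n = 3 each). The part of the transcripts of these lists in the interaction was not tested. Under scaling to the macrophage identity genes the calls of Nr4a1 and Btg2 ended (-0.19, adjusted p = 0.759, and -0.32, adjusted p = 0.491). That scaling moved the median gene of the interaction from -0.18 to 1.17. Relative to the median gene, Nr4a1 was at -1.43 with TMM and -1.36 with macrophage scaling, and Btg2 at -1.38 and -1.5. A change of scaling moves all genes by nearly the same amount. Such distances are therefore nearly fixed and say nothing further about the calls. The other 8 genes were not called, including Klf6 at 0.64 ± 0.272 (adjusted p = 0.14). Klf6 was called higher under 3 of 22 other settings. A fit blocked on replicate number gave 0.62 (adjusted p = 0.0485) and a fit without the low count filter 0.84 (adjusted p = 0.0335). Leaving out Bhlhe41Cre CCR2low replicate 3 gave 1.00 (adjusted p = 0.0142). Without WT CCR2hi replicate 1, Egr3, Nr4a2 and Nr4a3 were called lower too (-1.37, -1.44 and -0.71), which makes 5.

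WT CCR2hi replicate 1 stood apart from the other libraries of its group in both directions. It had 1.52, 1.31 and 0.95 above its group's mean log2 CPM for Nr4a2, Nr4a3 and Egr3, and -0.92, -0.47 and -0.37 relative to that mean for Klf2, Btg2 and Egr1. No deviation of the other 9 libraries outside WT CCR2hi reached 0.5 for any of the 10 genes. In raw counts, Nr4a3 had 6148 in this library, against 1355 and 1646 in the other libraries of the group, and Klf2 had 9376, against 22148 and 24262. Its macrophage identity share was 0.247%, against 0.480 and 0.580% in the other libraries, and its fibroblast share was 9.0%, against 8.82 and 9.88%. Its endothelial share was lower, at 0.210%, against 0.358 and 0.325%. The B cell share was higher, at 0.0213%, against 0.00303 and 0.00679%, as was the neutrophil share, at 0.00844%, against 0.00482 and 0.00385%. Whether these go together was not tested.

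**Figure D5:**
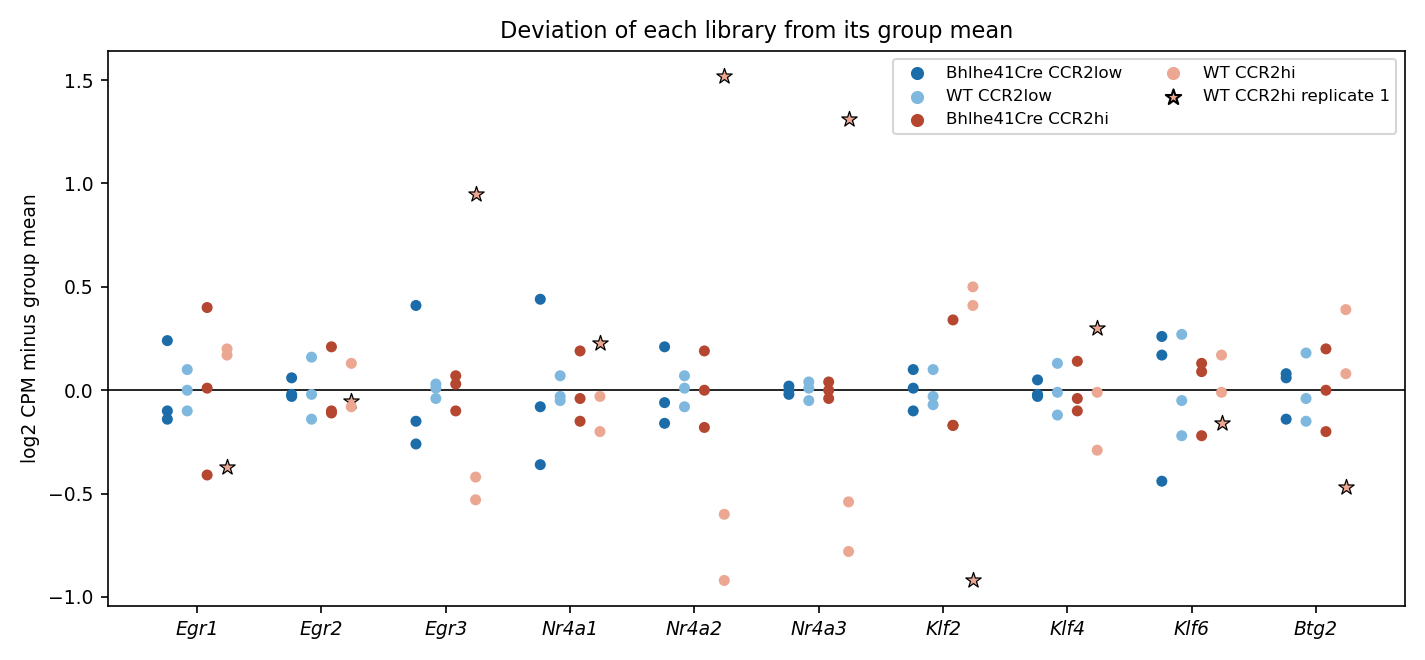
Deviation of each library's log2 CPM from its group mean for each gene; circles are libraries coloured by group and the star is WT CCR2hi replicate 1. The star lies at 1.52 for Nr4a2 and 1.31 for Nr4a3, and at -0.92 for Klf2.

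Other early response genes gave a wider view, from a list of 28 made up of AP-1 factors, dual specificity phosphatases and similar rapidly induced genes. In CCR2low 18 of the 28 were lower in Bhlhe41Cre and 4 higher (median -1.03, beside -0.18 over all genes; 26.7% of all genes were lower and 16.4% higher). The AP-1 genes Fosb and Jund were lower (-1.88 ± 0.160, adjusted p = 1.14e-05, and -1.54 ± 0.139, adjusted p = 1.79e-05), as was Ctgf, a matrix protein of fibroblasts (-2.66 ± 0.272, adjusted p = 3.16e-05). In CCR2hi 15 were lower and 9 higher (median -0.55, beside -0.03; 15.9% of all genes were lower and 16.2% higher). Among the higher ones were Arc, Dusp5 and Ier3 (2.01, 1.41 and 1.11, adjusted p = 5.43e-05, 2.23e-05 and 4.88e-05). These counts, like those below, describe lists chosen with earlier results of these data known.

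Regulators and partners of the 10 genes were read from short lists, beside the 26.7% of all genes that were lower and 16.4% that were higher in CCR2low, and the 15.9% lower and 16.2% higher in CCR2hi. Of 6 CREB family genes, 4 were higher and 1 lower in Bhlhe41Cre CCR2low (median 0.83), with Atf1 at 1.62, Crem at 1.55 and Creb1 at 1.17 (adjusted p = 0.000115, 0.00013 and 0.000135). In CCR2hi 2 were higher and 2 lower (median 0.39), with Crem at 1.91 (adjusted p = 3.13e-05), whose products include the repressor ICER. Of 4 EGR relatives and corepressors, 1 was higher in each gate and the other 3 were not called. It was Nab1, a corepressor of EGR proteins (1.43, adjusted p = 0.000137 in CCR2low, and 0.76, adjusted p = 0.00811 in CCR2hi). The other NAB corepressor gene, Nab2, was not called in either gate (-0.09, adjusted p = 0.653 in CCR2low). Of the 3 retinoid X receptor genes, whose products pair with Nr4a1 and Nr4a2 proteins, all 3 were lower in CCR2low and 1 in CCR2hi, with Rxra at -0.88 and -0.72 in these gates (adjusted p = 0.00111 and 0.00527).

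Of 5 ERK5 and MEF2 genes, which in mice drive Klf2, 1 was higher in CCR2low, Mef2a at 0.51 (adjusted p = 0.0327), and none was called in CCR2hi. Of 7 SRF genes and partners, Fhl2 was lower in Bhlhe41Cre in both gates (-1.96, adjusted p = 6.2e-05 in CCR2low, and -0.82, adjusted p = 0.00727 in CCR2hi), Elk4 was higher in CCR2low (0.51, adjusted p = 0.0382), and the rest were not called. Of 8 feedback inhibitors of ERK signalling, 4 were lower and 1 higher in CCR2low (26.7 and 16.4% over all genes) and 2 were lower in CCR2hi (15.9% over all genes). Spry1 was lower in both gates (-1.87, adjusted p = 6.66e-05, and -1.44, adjusted p = 0.000227), as was the ERK phosphatase gene Dusp6 (-1.31, adjusted p = 0.000605, and -0.79, adjusted p = 0.0155).

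Relatives outside the 10 did not all move with them. Of the other KLF genes, 11 of 14 were tested, of which 4 were lower and 1 higher in Bhlhe41Cre CCR2low and 3 lower and 1 higher in CCR2hi. Over all genes 26.7% were lower and 16.4% higher in CCR2low and 15.9% lower and 16.2% higher in CCR2hi. Klf13 was lower in both gates (-0.88, adjusted p = 0.000257, and -1.04, adjusted p = 9.56e-05). Of 4 BTG and TOB relatives tested, 1 was higher and 1 lower in CCR2low, and 2 were higher in CCR2hi. The other 2, Btg3 and Tob1, were not called in either gate. Btg1, the closest relative of Btg2, went the other way from it, higher in Bhlhe41Cre in both gates (0.87, adjusted p = 0.000279 in CCR2low, and 1.03, adjusted p = 0.000105 in CCR2hi). Tob2, of the same antiproliferative family, was lower in CCR2low (-0.48, adjusted p = 0.036) and higher in CCR2hi (0.72, adjusted p = 0.00637).

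Because Nr4a1 is needed for patrolling monocytes in mice, 8 other genes of these non-classical monocytes were read beside it. In CCR2low 4 of the 8 were lower in Bhlhe41Cre and none higher (median -0.63; 26.7% of all genes were lower), among them the fractalkine receptor gene Cx3cr1 (-1.47, adjusted p = 0.00375), Spn, which encodes CD43 (-1.22, adjusted p = 0.0186), and Ace (-1.02, adjusted p = 0.00765). Ace ran against most of this list between the WT gates. It was lower in CCR2low than in CCR2hi (-2.92, edgeR adjusted p = 1.19e-06), while 6 of the 8 were higher (29.8% over all genes). Between genotypes in CCR2hi, 4 of the 8 were higher in Bhlhe41Cre and 2 lower (median 0.14). Over all genes 16.2% were higher and 15.9% lower. The higher ones included Pglyrp1 (3.23, adjusted p = 7.94e-06), Treml4 (2.21, adjusted p = 0.000473) and Itgal (1.54, adjusted p = 0.000997). Pglyrp1 is also a granule protein of neutrophils, and the summed share of 9 neutrophil genes was 0.0830 to 0.130% in Bhlhe41Cre CCR2hi, against 0.00385 to 0.00844% in WT CCR2hi; their part in these values was not tested.

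The genes whose level most resembled each member over the 12 libraries were found by Pearson correlation of log2 CPM, as a description in which the 4 groups set most of the likeness. Klf2 was closest to Inafm2 (0.989), Rhob (0.988) and Jun (0.986), and Btg2 to Peg13 (0.989), Ppp6r2 (0.982) and Ier2 (0.982). Jun, Ier2 and Rhob are themselves rapidly induced genes. Nr4a1 was closest to Deaf1 (0.984) and Egr1 to Ajuba (0.986). Egr2 was closest to Rab11fip3 (0.993), Klf4 to Ank (0.972) and Klf6 to Asxl2 (0.957). The nearest genes to Nr4a3 were Sfr1 and Hmgb3 (both 0.946) and the nearest to Nr4a2 was Gstcd (0.917), with WT CCR2hi replicate 1 in each of these values.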

How the data were processed

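RNA from 12 libraries in 4 groups of 3 was analysed from 2 deposited tables. Per the submitters' processing notes, CASAVA 1.8, STAR 2.4.0j, RSEM and the mm10 build were used; the RSEM version, annotation and strand setting were not given in the sources used here. Expected counts deposited by the authors are whole numbers, and the deposited TPM values were made by the authors. Columns named KD were matched to Bhlhe41dTomato-Cre+/- samples by gate and replicate number, since the tables hold no other genotype name beside WT, and the label fields of those samples are shifted, so groups come from sample titles.

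The expected counts of all 12 libraries (53801 genes, 27248 with no count) were tested in R 4.3.3 with edgeR 4.0.16: filterByExpr on the groups (14964 genes), TMM scaling, glmQLFit with robust dispersion and 1 mean per group (8 residual degrees of freedom), glmQLFTest, two-sided, with Benjamini-Hochberg adjustment over all genes tested and a threshold of 0.05. The fit was tested on simulated data. CPM are TMM scaled, and a log2 fold change is the first-named group over the second. Alternatives were DESeq2 1.42.0 (fit, or its size factors in edgeR), limma 3.58.1 (voom, or trend on log2(TPM + 1)), scaling to total counts or to 17 macrophage identity genes, no low count filter, a minimum of 1.5-fold, only the groups compared, each library left out, both Bhlhe41Cre libraries numbered 3 left out, a replicate block and, added after seeing the data, a correction for GC content and length. Where settings are counted out of 23 (22 for the interaction), macrophage scaling is left out and given on its own.

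Genes named outside the 10 are, from each list and comparison, up to 3 called genes with the smallest p, and for each of the 10 up to 3 genes with the highest correlation of log2 CPM among genes with a mean of at least 5 CPM. The 10 genes and the lists were chosen with earlier results of these data known. Deviations from group means were correlated between same-numbered libraries of the gates, with r = 0.39, 0.13 and 0.63 in Bhlhe41Cre and -0.11, 0.09 and -0.05 in WT. Bhlhe41Cre CCR2low replicate 2 was closest to CCR2hi replicate 1. Same-numbered libraries of the genotypes in CCR2hi gave 0.23, -0.33 and 0.27. Whether the numbers pair the gates is thus not settled. The main fit uses no pairing, and the replicate block is among the alternatives. Counting limits precision little at these depths, since the common biological coefficient of variation was 18.9%. Positions are from GENCODE M21 on GRCm38, the assembly called mm10, in which 99.66% of gene identifiers were found; promoters are from RefSeq on GRCm38.p6. Nr4a1 was left out of the list of non-classical monocyte genes.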

Additional observations from a re-analysis of the deposited data

Results flagged for a closer look

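The genotype difference of Nr4a1 and of Btg2 differed between the gates by a test of the difference itself. The interaction was -1.60 for Nr4a1 (edgeR adjusted p = 0.00317) and -1.56 for Btg2 (adjusted p = 0.00426). Both fell in Bhlhe41Cre in both gates, Nr4a1 with log2 fold changes of -2.36 in CCR2low and -0.75 in CCR2hi, and Btg2 with -2.91 in CCR2low and -1.35 in CCR2hi. Both interactions stood under 22 of the alternatives and ended under scaling to macrophage identity genes, which moved the median gene of the interaction from -0.18 to 1.17. Relative to the median gene Nr4a1 was at -1.43 with TMM and -1.36 with that scaling, and Btg2 at -1.38 and -1.5. A change of scaling leaves such distances nearly fixed, so they say nothing further about the calls. Cardiomyocyte genes (8 of 10), mural cell genes (6 of 10), neutrophil genes (7 of 9) and macrophage identity genes (7 of 17) were called lower in the interaction too. Their medians were -2.06, -1.57, -3.76 and -1.09. The fibroblast list had 1 of 16 called lower (median -0.16), and over all genes 7.85% were lower. The part of these transcripts in the values of Nr4a1 and Btg2 was not tested.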

How the results depend on the processing

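Scaling to macrophage identity genes called all 10 genes lower between the WT gates in place of 4, and in the interaction 2 higher (Egr2 at 1.25 and Klf6) in place of 2 lower; it gave Nr4a1 -3.39 and Klf6 -3.13 between the WT gates, Klf6 -1.19 between the Bhlhe41Cre gates and Egr3 -1.48 between genotypes in CCR2hi. A minimum of 1.5-fold left 3 of 6 genes between genotypes in CCR2hi. With 1 library left out, the genes called numbered 4 to 6 between the WT gates, 7 to 10 between the Bhlhe41Cre gates, 6 to 9 between genotypes in each gate and 2 to 5 in the interaction. Between the WT gates Nr4a2 then ran from -0.65 to 0.72, and in the interaction Nr4a3 from -0.71 to 0.40, with 0.72 and -0.71 without WT CCR2hi replicate 1. The replicate block gave 4, 8, 7, 6 and 3 called genes in the 5 comparisons and changed no other call than Klf6 in the interaction. Over all genes, the 5 comparisons had 8949, 8094, 6441, 4808 and 1884 calls, against 5509, 4928, 2486, 1329 and 478 with the 1.5-fold minimum and 14362, 13542, 2067, 11137 and 6504 with macrophage scaling; limma on TPM called 1091 in the interaction. The cause of these changes was not tested. Leaving out both Bhlhe41Cre libraries numbered 3 kept 7 calls in CCR2low and 6 in CCR2hi between genotypes, with Egr3 lost and Klf6 gained in CCR2low. Nr4a1, Klf2, Egr1, Egr2 and Btg2 were called lower in Bhlhe41Cre CCR2low under all alternatives run.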
